A study of Mus musculus with 9 samples.

Results

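The 9 genes Msln, Muc16, Pdpn, Upk1b, Amhr2, Gata4, Gata6, Nr2f2 and Lhx9, known as markers or regulators of mesothelium, ovarian surface epithelium and the gonad, were described among 27998 genes in 1 single-cell RNA library. They were chosen by name. The library came from the ascites of a B6_WT mouse host carrying the ID8-Def29/Vegf ovarian cancer model, and the labels give no treatment, host age or number of animals for it. ID8 is a tumour line grown from mouse ovarian surface epithelium, and Def29/Vegf denotes a derivative of it. The series also has 8 bulk libraries of the ID8-Def29/Vegf line in culture, 4 with deferiprone for 12 h and 4 with vehicle, which were not analysed here. With 1 library there was no replicate and no test, and each 95% interval below covers counting error at most.

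Mesothelium is the thin epithelial sheet that lines the body cavities, and the ovarian surface epithelium is a part of it that covers the gonad. Its cells combine keratins with genes of mesodermal origin and carry surface glycoproteins such as mesothelin. In the embryo the surface of the gonad depends on transcription factors of the GATA, nuclear receptor and LIM homeodomain families, and its derivatives respond to anti-Müllerian hormone. The host's peritoneal lining is mesothelium and ID8 cells descend from ovarian surface epithelium, so both tissues can carry these genes.

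Of 737280 barcodes, 6442 held at least 500 unique molecular identifiers (UMIs, each standing for 1 captured RNA molecule), at least 200 genes and at most 15% mitochondrial UMIs. They had a median of 3300 UMIs. Barcodes were classed by summed UMIs of marker genes. The stromal rule asked for at least 4 UMIs of Col1a1, Col1a2, Col3a1, Mgp and Dcn, and 725 barcodes met it. The tumour-like rule asked for at least 3 UMIs of Krt8, Krt18, Krt19, Wt1 and Upk3b with none of Col1a1, Col1a2 and Mgp, and 3511 barcodes met it. Both allowed at most 1 UMI of C1qa, C1qb and C1qc. The macrophage rule asked for at least 3 UMIs of those 3 genes with at most 1 of the keratin set, and 1076 barcodes met it. Median depth was 6966 UMIs under the stromal rule, 5000 under the tumour-like rule and 1639.5 under the macrophage rule.

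Each class was a range cut from a score. Just inside and outside the stromal threshold lay 252 and 407 barcodes, and 260 and 272 lay on either side of the tumour-like threshold. The stromal label did not hold for most of its barcodes. Of the 725, 604 (83.3%) also met the tumour-like rule, and Dcn gave 3391 of the 3420 UMIs by which they met the stromal one. The class is therefore called by its rule, and the 121 barcodes that met the stromal rule alone were also set against the 2907 that met the tumour-like rule alone. The mesothelial markers Krt7, Krt8, Krt18, Krt19, Wt1, Upk3b, Lrrn4, Bnc1 and Nkain4 summed to 2405 UMIs per 1000000 UMIs of the class (CPM) in the stromal-only barcodes and 1995 CPM in the tumour-like-only barcodes, where 5 of them chose the class and fixed the sum. Of the 4 that no rule used, Nkain4 was at 131 CPM in stromal-only and 48.5 CPM in tumour-like-only barcodes, and Bnc1 at 37.5 CPM in stromal-only and 14.1 CPM in tumour-like-only barcodes. Of 9 fibroblast markers, which include the genes of the stromal rule, 8 had UMIs under that rule and the proteoglycan gene Lum had 0. They summed to 1847 CPM in stromal-only and 224 CPM in tumour-like-only barcodes, a difference that the rules shaped. Outside the rules, Pdgfra had 27 UMIs, Thy1 5 and Col5a1 4 under the stromal rule, and 65, 0 and 1 under the tumour-like rule. Pdgfra was at 5.19 CPM (3.42 to 7.55) under the stromal rule and 3.40 CPM (2.62 to 4.33) under the tumour-like rule.

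Levels are given as CPM over all UMIs of a class, so they can be compared between classes for a gene but not between genes. The stromal-rule and tumour-like sums share 604 barcodes. Intervals of their ratios, and overlaps of their level intervals, treat the sums as separate. They therefore do not give the counting error of a difference between these classes. RNA free in the fluid adds UMIs to every barcode. Free RNA was read from barcodes of 1 to 50 UMIs, and the markers of other cell types put its share at 5.05% of UMIs under the stromal rule, 5.72% under the tumour-like rule and 12.3% under the macrophage rule. A second free RNA profile, from barcodes of 100 to 200 UMIs, gave 8.01% under the stromal rule, 9.08% under the tumour-like rule and 11.3% under the macrophage rule. At least 1 UMI of the 9 genes was found in 98.9% of stromal-rule barcodes, 96.5% of tumour-like barcodes and 9.67% of macrophage barcodes.

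Among the surface glycoproteins, Msln encodes mesothelin, a membrane-anchored protein of mesothelium, and lies at chr17:25748613-25754378 (GRCm38, GENCODE M21, minus strand). Msln had 103 UMIs and 19.8 CPM (16.2 to 24.0) under the stromal rule, 150 UMIs and 7.85 CPM (6.64 to 9.21) under the tumour-like rule and 1 UMI in macrophage barcodes. Its level was thus highest under the stromal rule, with intervals that did not overlap, and the ratio of stromal-rule to tumour-like barcodes was 2.52 (1.94 to 3.26). Of these UMIs, 47 stood in both sums. Within the stromal rule the UMIs were unevenly spread. The 121 stromal-only barcodes, 1.88% of all kept, held 56 of the 224 Msln UMIs.

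Muc16 (chr9:18495455-18674530, minus strand) encodes the mucin that carries the CA125 antigen in humans and binds mesothelin. It was sparse, with 41 UMIs and 7.88 CPM (5.66 to 10.7) under the stromal rule, 90 UMIs and 4.71 CPM (3.79 to 5.79) under the tumour-like rule and 2 UMIs in macrophage barcodes. The stromal-rule to tumour-like ratio was 1.67 (1.13 to 2.45). In barcodes of 1 to 50 UMIs the level was 9.80 CPM (2.02 to 28.6), on 3 UMIs, and in barcodes of 100 to 200 UMIs it was 1.40 CPM (0.701 to 2.51), on 11 UMIs. Both class intervals overlapped the first of these and lay above the second. At the free RNA share from barcodes of 1 to 50 UMIs, free RNA would give 0.495 CPM under the stromal rule and 0.560 CPM under the tumour-like rule.

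Pdpn (chr4:143267431-143299564, minus strand) encodes podoplanin, a mucin-like protein of mesothelium, lymphatic endothelium and some fibroblasts that binds the platelet receptor Clec1b. Its level was 107 CPM (98.2 to 116) under the stromal rule and 103 CPM (98.5 to 108) under the tumour-like rule, with intervals that overlapped. In macrophage barcodes it was 7.35 CPM (4.02 to 12.3). Of 8 markers of lymphatic or blood endothelium, another source of podoplanin, Prox1, Cdh5 and Tie1 were at 0 UMIs in both the stromal-rule and the tumour-like class. Flt4, a receptor of lymphatic endothelium, had 40 UMIs under the stromal rule and 100 under the tumour-like rule, and the 8 genes summed to 12.1 CPM under the stromal rule and 11.2 CPM under the tumour-like rule. Their part in the Pdpn levels was not tested. Upk1b (chr16:38773184-38800328, minus strand) encodes a tetraspanin of the uroplakin family, which coats urothelium and is also made by mesothelium. It had 60.6 CPM (54.1 to 67.6) under the stromal rule, 39.3 CPM (36.6 to 42.3) under the tumour-like rule and 3.15 CPM (1.16 to 6.85) in macrophage barcodes. The stromal-rule to tumour-like ratio was 1.54 (1.35 to 1.76).

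Amhr2 (chr15:102445367-102454633, plus strand) encodes the receptor that binds anti-Müllerian hormone, which makes the Müllerian ducts regress in the male embryo. It was detected widely: 87.3% of stromal-rule barcodes, 86.4% of tumour-like barcodes and 5.11% of macrophage barcodes held at least 1 UMI. With every barcode thinned to 1000 UMIs the shares were 39.2% of 720 stromal-rule, 43.2% of 3464 tumour-like and 2.63% of 950 macrophage barcodes. Amhr2 stood at 529 CPM (509 to 549) under the stromal rule, 586 CPM (575 to 597) under the tumour-like rule and 29.9 CPM (22.7 to 38.7) in macrophage barcodes. It was the only member whose ratio of stromal-rule to tumour-like barcodes had an interval below 1, at 0.903 (0.866 to 0.942). Of its UMIs, 2487 stood in both sums. Stromal-rule barcodes were deeper, and Amhr2 fell with depth among tumour-like barcodes, as described below. The part of depth in this ratio was not tested.

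Gata4 (chr14:63198922-63271692, minus strand) and Gata6 (chr18:11052064-11085635, plus strand) encode zinc-finger transcription factors of gonadal and mesothelial tissue. Gata4 had 61.3 CPM (54.8 to 68.4) under the stromal rule and 59.4 CPM (56.0 to 63.0) under the tumour-like rule, against 4.72 CPM (2.16 to 8.96) in macrophage barcodes. Gata6 had 215 CPM (203 to 228) under the stromal rule and 205 CPM (198 to 211) under the tumour-like rule, against 11.0 CPM (6.82 to 16.8) in macrophage barcodes. The stromal-rule and tumour-like intervals overlapped for both factors.

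Nr2f2 (chr7:70351944-70366735, minus strand) encodes COUP-TFII, a nuclear receptor of mesenchyme and mesothelium. It had 11.0 CPM (8.30 to 14.2) under the stromal rule, 13.2 CPM (11.7 to 14.97) under the tumour-like rule and 1 UMI in macrophage barcodes. Lhx9 (chr1:138825186-138848577, minus strand) encodes a LIM homeodomain factor that the embryonic gonad of the mouse needs. It was near the limit of detection, with 6 UMIs under the stromal rule, 18 under the tumour-like rule and 0 in macrophage barcodes. There 3 UMIs would be 1.57 CPM, and the interval reached 1.94 CPM. No ratio was taken for it against macrophages.

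**Figure D1:**
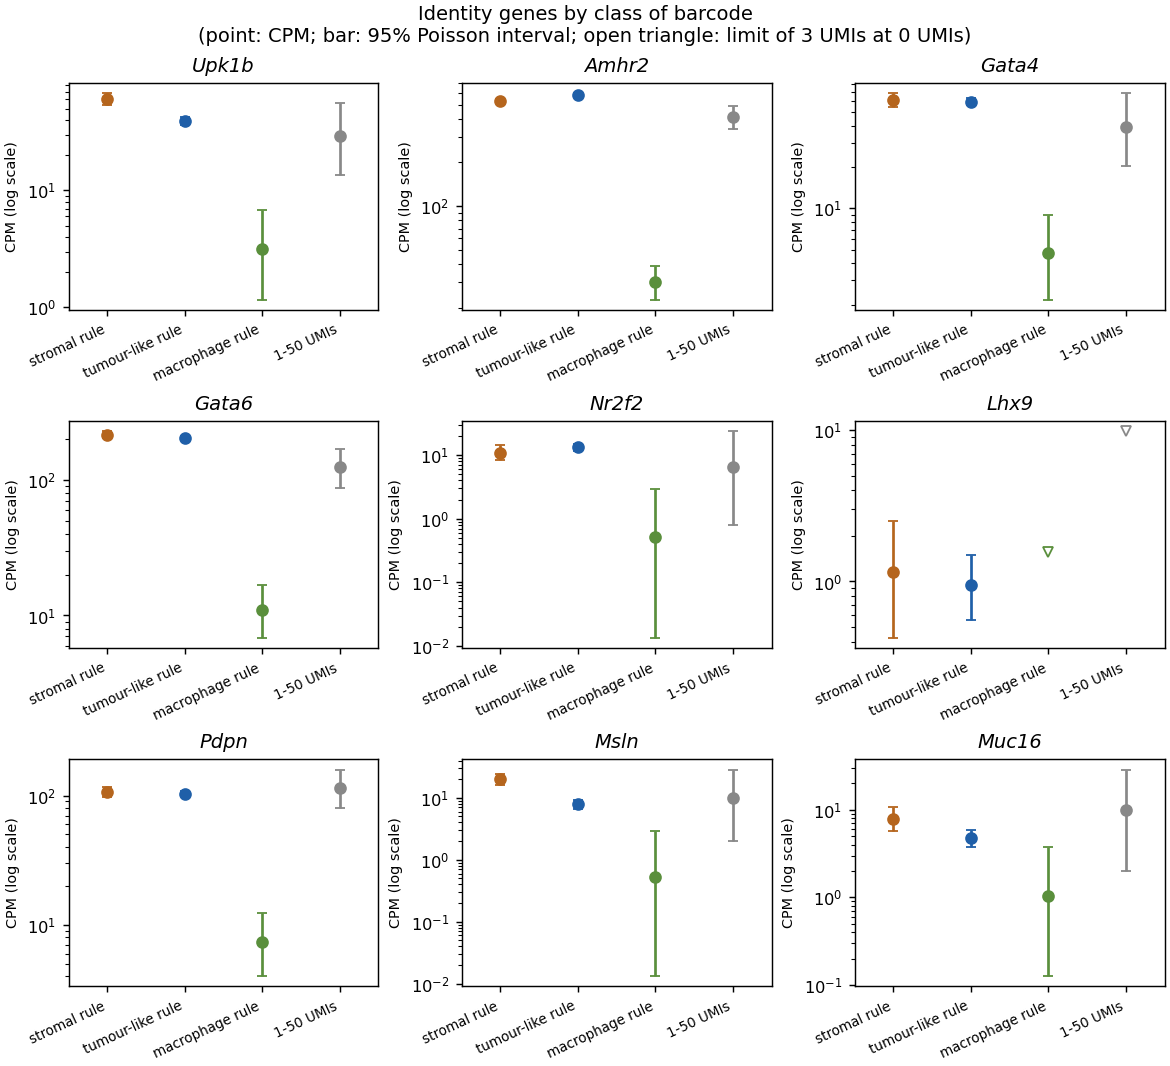
Level of each of the 9 genes (CPM, log axis) in barcodes of the stromal rule, the tumour-like rule, the macrophage rule and in barcodes of 1 to 50 UMIs, with 95% Poisson intervals. An open triangle marks the level of 3 UMIs where 0 were counted. The stromal-rule and tumour-like points sit close together for Gata4, Gata6 and Pdpn, and macrophage points sit lowest for the 8 genes other than Lhx9.

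Promoters are shown for Amhr2 and for the 2 genes with an entry whose level differed most between stromal-rule and tumour-like barcodes in each direction, Muc16 upward and Nr2f2 downward. The Nr2f2 ratio was 0.828 (0.610 to 1.11), with an interval that held 1. The windows run from 250 bases before to 50 after the RefSeq start (GRCm38.p6), and 5 of the 9 genes had an entry. Amhr2 is chr15:102445117-102445416 on the plus strand, Muc16 is chr9:18674554-18674853 on the minus strand and Nr2f2 is chr7:70366697-70366996 on the minus strand. Each is written 5′ to 3′ along the gene, and capitals mark matches to a motif on either strand. The motifs of GATA factors were AGATAA, then the variant AGATAG, then the variant TGATAA, and lastly the variant TGATAG. The half-site of nuclear receptors was AGGTCA.
Amhr2: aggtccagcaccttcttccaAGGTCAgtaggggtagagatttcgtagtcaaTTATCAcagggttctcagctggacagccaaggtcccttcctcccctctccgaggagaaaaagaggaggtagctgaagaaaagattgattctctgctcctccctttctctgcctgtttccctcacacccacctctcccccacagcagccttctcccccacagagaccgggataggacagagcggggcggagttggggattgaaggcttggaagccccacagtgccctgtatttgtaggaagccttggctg
Muc16: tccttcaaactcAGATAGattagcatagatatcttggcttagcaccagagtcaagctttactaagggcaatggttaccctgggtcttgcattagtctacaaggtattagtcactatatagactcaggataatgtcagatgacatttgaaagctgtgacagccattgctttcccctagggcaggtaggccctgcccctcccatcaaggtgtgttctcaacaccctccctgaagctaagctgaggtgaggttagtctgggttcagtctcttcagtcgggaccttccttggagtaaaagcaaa
Nr2f2: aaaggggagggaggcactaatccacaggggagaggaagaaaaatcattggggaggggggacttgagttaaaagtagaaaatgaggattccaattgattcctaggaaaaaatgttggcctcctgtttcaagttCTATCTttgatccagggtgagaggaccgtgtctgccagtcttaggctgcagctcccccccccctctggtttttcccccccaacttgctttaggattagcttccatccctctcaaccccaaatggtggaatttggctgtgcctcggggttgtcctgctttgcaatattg

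A GATA-factor match began at position -199 from the start in Amhr2, at -238 in Muc16 and at -118 in Nr2f2, on the strand opposite to the gene in Amhr2 and Nr2f2. Amhr2 also had the half-site at -230. Lhx9 and Pdpn, the other genes with an entry, each held 1 GATA-factor match as well, so all 5 windows had 1. Among 32851 mouse promoter windows of the same length, 29.8% held a GATA-factor match, 16.3% the half-site and 5.29% the LIM homeodomain motif TAATTA, which was in none of the 5. A match is a run of letters and shows no binding.

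Tumour-like barcodes had higher levels than macrophage barcodes for 7 of the 8 genes with at least 20 UMIs over both classes, taking as higher a ratio of at least 2 after 5 CPM was added to each level. Over all 11792 genes so measured, 17.9% were higher and 9.62% lower. The median log2 ratio was 2.59 for the 8 genes and 0.31 for all genes. Amhr2 was 19.6 times higher (15.1 to 25.9) and Gata6 18.6 times higher (12.1 to 30.03). Muc16, at 4.71 CPM against 1.05 CPM, did not reach the limit, and Lhx9 had too few UMIs. Stromal-rule barcodes were higher than macrophage barcodes for all 8 genes, with 21.1% of 10111 genes higher and 10.9% lower.

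The macrophage levels were set beside what free RNA would give. At a free RNA share of 12.3%, Amhr2 would have had 50.4 CPM in macrophage barcodes without any expression, and 29.9 CPM were counted. Gata6 would have had 15.3 CPM against 11.0 CPM counted, and Pdpn 14.1 CPM against 7.35 CPM counted. For all 8 genes with a UMI in macrophages the counted level lay below this value. By the second profile 3 of the 8 were counted above it, Gata6 at 11.0 CPM against 9.41 CPM, Gata4 at 4.72 CPM against 3.54 CPM and Muc16 at 1.05 CPM against 0.159 CPM. The intervals of all 8 counted levels held the value from the second profile. At the pooled share of either profile no macrophage level of these 8 genes lay above that of free RNA beyond counting error. A ratio against macrophage barcodes gives no size of a difference in expression. The markers behind the share differed: Spry2 was at 4.20 CPM in macrophage barcodes and 81.6 CPM in barcodes of 1 to 50 UMIs, and Wfdc18 at 43.0 and 189 CPM. The macrophage rule also allowed at most 1 keratin-set UMI, which limits tumour-like RNA in that class. The comparison at the share of a single marker was not tested.

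Between stromal-rule and tumour-like barcodes 0 of the 9 genes were higher and 0 lower by the same limit, against 0.129% and 0.00858% of 11661 genes, and 604 barcodes stood in both sums. The 121 stromal-only barcodes differed more. Of 8 genes with enough UMIs, 2 were higher than in the 2907 tumour-like-only barcodes and 0 were lower, with 1.77% of 11032 genes higher and 1.77% lower.

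Msln was at 80.9 CPM (61.1 to 105) in stromal-only barcodes and 7.05 CPM in tumour-like-only barcodes, 11.5 times as high (8.13 to 16.0). Upk1b was at 86.6 CPM in stromal-only barcodes and 34.0 CPM in tumour-like-only barcodes, 2.55 times as high (1.91 to 3.33). Muc16 was at 10.1 CPM on 7 UMIs in stromal-only barcodes and 3.83 CPM in tumour-like-only barcodes, a ratio of 2.64 (1.01 to 5.80) that stayed under the limit once 5 CPM was added to each level. Pdpn had a ratio of 1.46 (1.19 to 1.78) and Gata6 1.17 (0.993 to 1.37). Amhr2 was at 381 CPM in stromal-only barcodes against 596 CPM in tumour-like-only barcodes, a ratio of 0.639 (0.564 to 0.723), and Gata4 had a ratio of 0.675 (0.442 to 0.989). The median depth was 4491 UMIs in stromal-only and 4706 UMIs in tumour-like-only barcodes.

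The 39 stromal-only barcodes with at least 4 UMIs of Col1a1, Col1a2 and Mgp, a set chosen after the overlap of the rules was seen, stood further from the tumour-like-only barcodes. There 2 of 8 genes were higher and 2 lower, with 5.31% of 10956 genes higher and 11.8% lower. Upk1b reached 140.4 CPM (92.5 to 204) and Msln 125 CPM (80.0 to 186) in the 39 barcodes, against 34.0 and 7.05 CPM in tumour-like-only barcodes. Amhr2 was at 229 CPM (166 to 307) in the 39 barcodes against 596 CPM in tumour-like-only barcodes. Gata4 rested on 4 UMIs, at 20.8 CPM (5.67 to 53.3) against 57.8 CPM in tumour-like-only barcodes. Gata6 did not differ beyond counting error, with a ratio of 0.976 (0.689 to 1.34).

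Between these ends the levels of 3 genes ran in order. From the 39 barcodes through the 68 stromal-only barcodes with 1 to 3 UMIs of Col1a1, Col1a2 and Mgp, the barcodes of both rules and the tumour-like-only barcodes, Amhr2 stood at 229, 417, 552 and 596 CPM. In the same order Upk1b stood at 140.4, 70.7, 56.6 and 34.0 CPM, where neighbours among the first 3 overlapped in their intervals. The 14 stromal-only barcodes with none of these UMIs stand in neither set. Msln stood at 125, 70.7, 10.4 and 7.05 CPM, where the first pair overlapped in their intervals and the step to barcodes of both rules was the largest. Gata6 kept no such order. Along these sets the median depth was 3984, 6110, 7300.5 and 4706 UMIs, and its part in the levels was not tested. The 604 barcodes of both rules had 0 of 8 genes higher and 0 lower than the tumour-like-only barcodes, with 0.0883% and 0.0265% of genes past the limit.

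**Figure D2:**
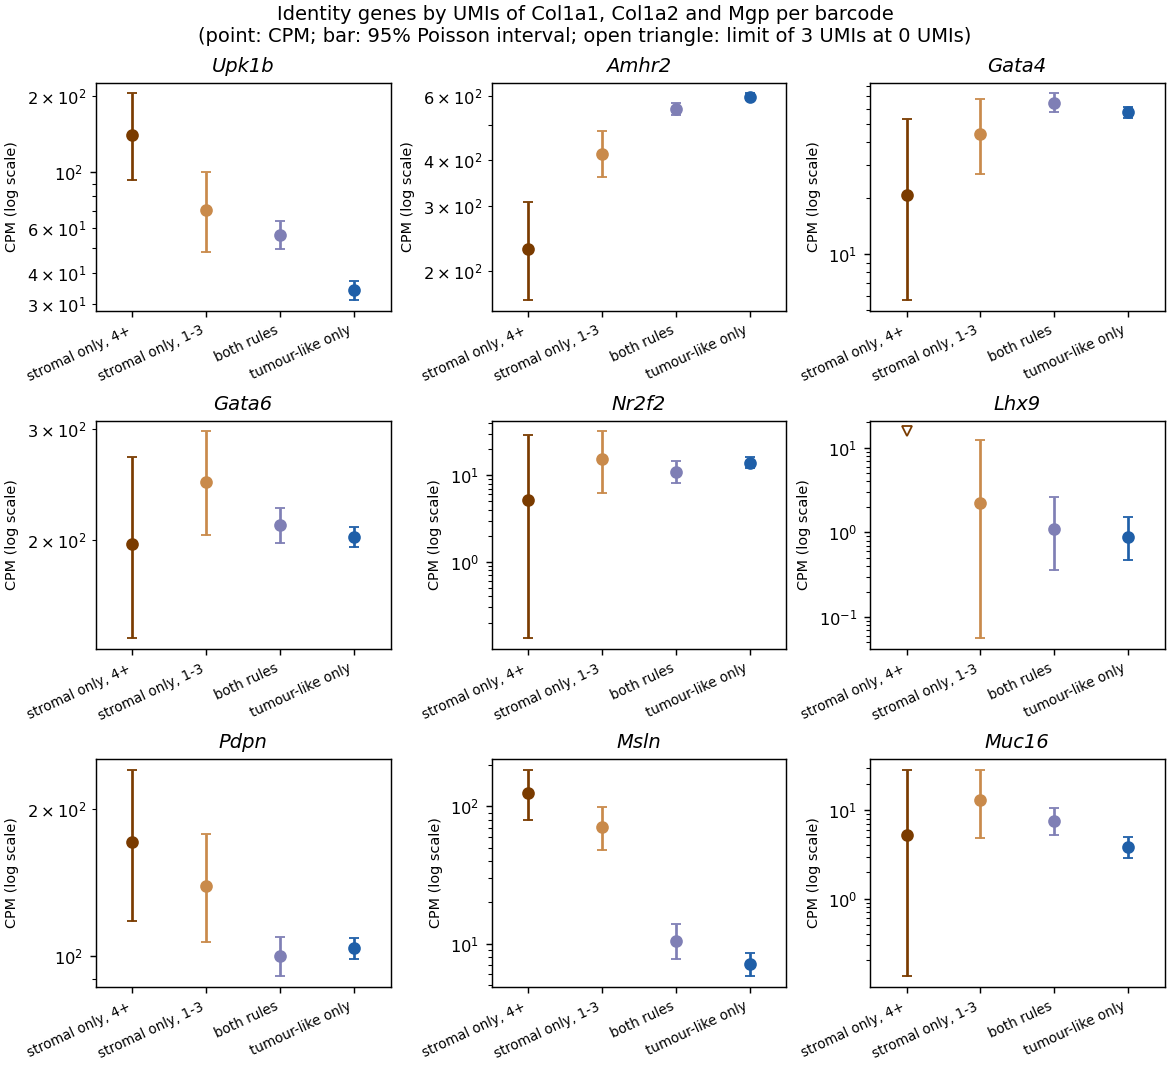
Level of each of the 9 genes (CPM, log axis) in stromal-only barcodes with 4 or more and with 1 to 3 UMIs of Col1a1, Col1a2 and Mgp, in barcodes of both rules and in tumour-like-only barcodes. Bars are 95% Poisson intervals, and an open triangle marks the level of 3 UMIs where 0 were counted. Msln and Upk1b are highest at the left, and Amhr2 is lowest there.

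Markers of other cells were summed in the same sets. Macrophage markers summed to 105 CPM in stromal-only and 94.3 CPM in tumour-like-only barcodes, and the 4 globin genes to 335 CPM in stromal-only and 1795 CPM in tumour-like-only barcodes. The 8 endothelial markers summed to 10.1 CPM in stromal-only and 10.8 CPM in tumour-like-only barcodes, and all but Flt4 and Kdr were at 0 UMIs in stromal-only barcodes. The pericyte list summed to 37.5 CPM in stromal-only and 5.75 CPM in tumour-like-only barcodes, led by Acta2 and with Myh11, Rgs5 and Cspg4 at 0 UMIs in stromal-only barcodes. The part of these genes in the differences was not tested.

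Msln was found in few stromal-only barcodes but at several UMIs in them. Its 56 UMIs came from 24 of the 121 barcodes, with up to 8 in 1 barcode, while no tumour-like barcode held more than 2. With barcodes thinned to 1000 UMIs, 9.48% (4.83 to 16.3) of 116 stromal-only barcodes and 0.839% (0.538 to 1.25) of 2860 tumour-like-only barcodes held a Msln UMI. Barcodes with Msln also held other genes at different shares. Upk1b was found in 12 of the 24 barcodes with Msln and in 28 of the 97 without, and Amhr2 in 11 of the 24 and 70 of the 97. Slpi, a protease inhibitor of epithelia, was found in 23 of the 24 and in 56 of the 97. Median depth was 3518.5 UMIs in barcodes with Msln and 4986 UMIs in those without.

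All kept barcodes were then clustered without the 9 genes and without the other listed genes, which gave 18 clusters. Cluster 16, with 49 barcodes and a median of 2622 UMIs, was led by Slpi, Mgp and Col1a2, and 79.6% of it was stromal-only. It had 5 of 9 mesothelial and 6 of 9 fibroblast markers detected, where detection asked for a minimum of 50 CPM and a ratio above 2 to the other barcodes, so it was given no name. Msln had 347 CPM (263 to 450) in cluster 16, on 57 UMIs, and Upk1b 249.9 CPM (179 to 339). Muc16 also peaked there, at 48.8 CPM (21.05 to 96.1) on 8 UMIs. Amhr2 was at 116 CPM (69.7 to 181) in cluster 16, against 511 CPM in cluster 2, led by the complement gene C3, and 904 CPM in cluster 5, led by the defensin gene Defb19. Gata6 was at 238 CPM (169 to 325) in cluster 16, within counting error of the 229 CPM of cluster 2 and the 205 CPM of cluster 5. These levels describe clusters of 1 library and carry no test.

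**Figure D3:**
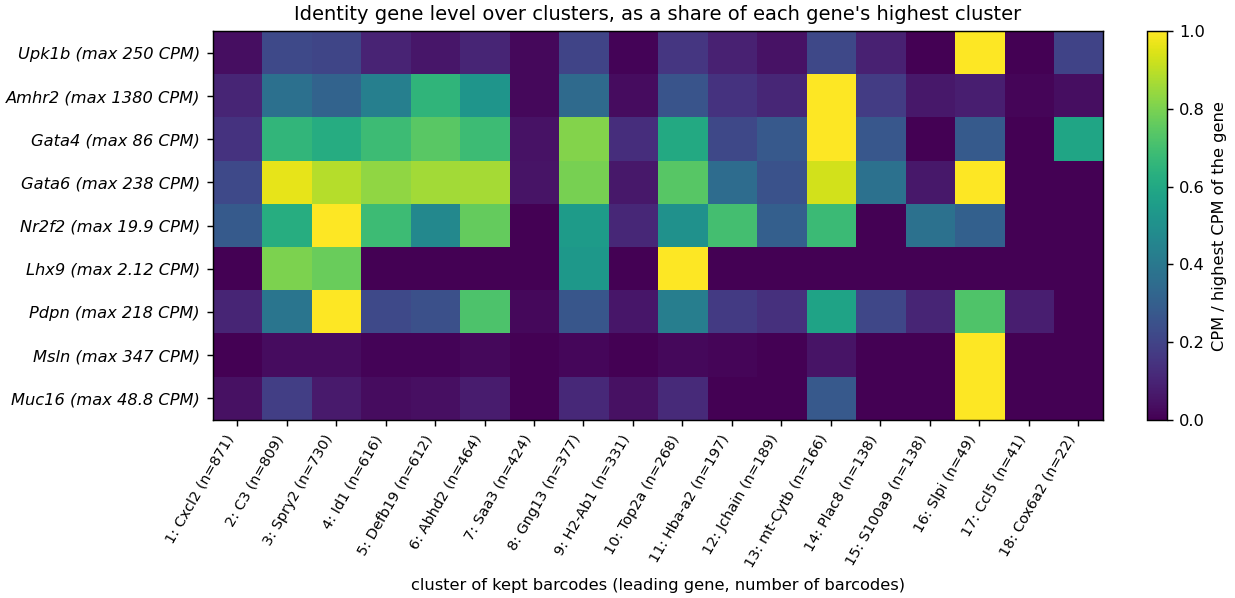
Level of each of the 9 genes in 18 clusters of kept barcodes as a share of the gene's highest cluster (colour), with the highest level in CPM beside the gene name and the leading gene and number of barcodes below each column. Msln, Muc16, Upk1b and Gata6 are highest in cluster 16, led by Slpi, Gata6 by less than counting error. Amhr2 and Gata4 are highest in cluster 13, led by mt-Cytb, Gata4 by less than counting error.

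Cluster 13, where Amhr2 was highest at 1380.3 CPM, was shallow, with a median of 1124 UMIs, and led by mitochondrial genes. Depth moved with the levels of several genes among tumour-like barcodes too. Amhr2 was at 967 CPM (863 to 1081) in tumour-like barcodes under 2000 UMIs and fell stepwise to 492 CPM (474 to 512) in those of at least 8000. Pdpn also fell stepwise, with 205 CPM (159 to 261) in the shallowest and 89.0 CPM (81.2 to 97.4) in the deepest barcodes. Upk1b was at 106 CPM (73.2 to 148) in the shallowest barcodes and between 35.5 and 42.1 CPM in the others. Msln and Muc16 were highest in the shallowest barcodes as well, at 28.0 CPM on 9 UMIs and 18.7 CPM on 6 UMIs, against 7.14 and 4.88 CPM in the deepest. The fall was not seen for Gata6, with 177 CPM (134 to 230) in the shallowest and 217 CPM (205 to 230) in the deepest barcodes. Gata4 was at 87.1 CPM (57.9 to 126) in the shallowest barcodes and between 57.7 and 59.7 CPM in the others. The part of depth in the cluster levels was not tested.

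Clustering the tumour-like barcodes alone gave 10 clusters, 9 of them with at least 50 barcodes. The highest of these 9 stood over the lowest by 5.25 times (3.36 to 8.18) for Upk1b, 3.98 times for Pdpn, 3.85 times (3.46 to 4.29) for Amhr2 and 1.55 times (1.27 to 1.88) for Gata6. Pdpn was at 212 CPM (196 to 229) in cluster 2, led by Actb, Spry2 and Slc39a1, and at 53.3 CPM (45.6 to 61.9) in cluster 1, led by Defb19, Gm26532 and Ahsg. The ratio was 3.98 (3.36 to 4.73), and the median depths were alike, at 5202 and 5443 UMIs. In the order of levels Pdpn next stood at 168 CPM in cluster 8 and 156 CPM in cluster 6, whose intervals overlapped, and the interval of cluster 8 also reached that of cluster 2.

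Amhr2 ran nearly the other way between clusters 1 and 2. It was at 888 CPM (856 to 921) in cluster 1 and 456 CPM (433 to 481) in cluster 2. It was lowest, at 334 CPM (310 to 360), in cluster 7, led by Top2a, Birc5 and Lockd, and at 365 CPM (340 to 392) in cluster 5, led by Tm4sf5, Slpi and Krt7, with intervals that overlapped. Its highest level, 1288 CPM (1192 to 1389), was in cluster 8, led by Hbb-bs, Hba-a1 and Hba-a2, with a median depth of 1930 UMIs.

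Upk1b was at 72.5 CPM (61.6 to 84.9) in cluster 5, against 21.4 CPM (16.6 to 27.1) in cluster 1 and 15.7 CPM (11.4 to 21.02) in cluster 3, led by Ifitm1, Igfbp4 and H2-Aa. Msln was at 15.9 CPM (11.0 to 22.2) in cluster 5 and 3.72 CPM (1.92 to 6.50) in cluster 1. The shallow cluster 8 was highest in both genes, with 82.2 CPM (59.5 to 111) of Upk1b and 32.5 CPM (18.9 to 52.0) of Msln, and cluster 9, led by Cd52, had 71.3 CPM (44.2 to 109) of Upk1b. High Upk1b thus stood beside low Amhr2 in cluster 5 and beside the highest Amhr2 in cluster 8. The stromal rule was met by 22.4% of cluster 5, and over the 9 clusters this share ran from 8.19% in cluster 1 to 33.3% in cluster 7. Gata6 lay between 180.2 CPM (162 to 199) in cluster 7 and 279 CPM (236 to 328) in cluster 8, and at 225 CPM (205 to 246) in cluster 5 it was also above cluster 7. Gata4 lay between 44.2 and 91.7 CPM and was highest in cluster 8.

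**Figure D4:**
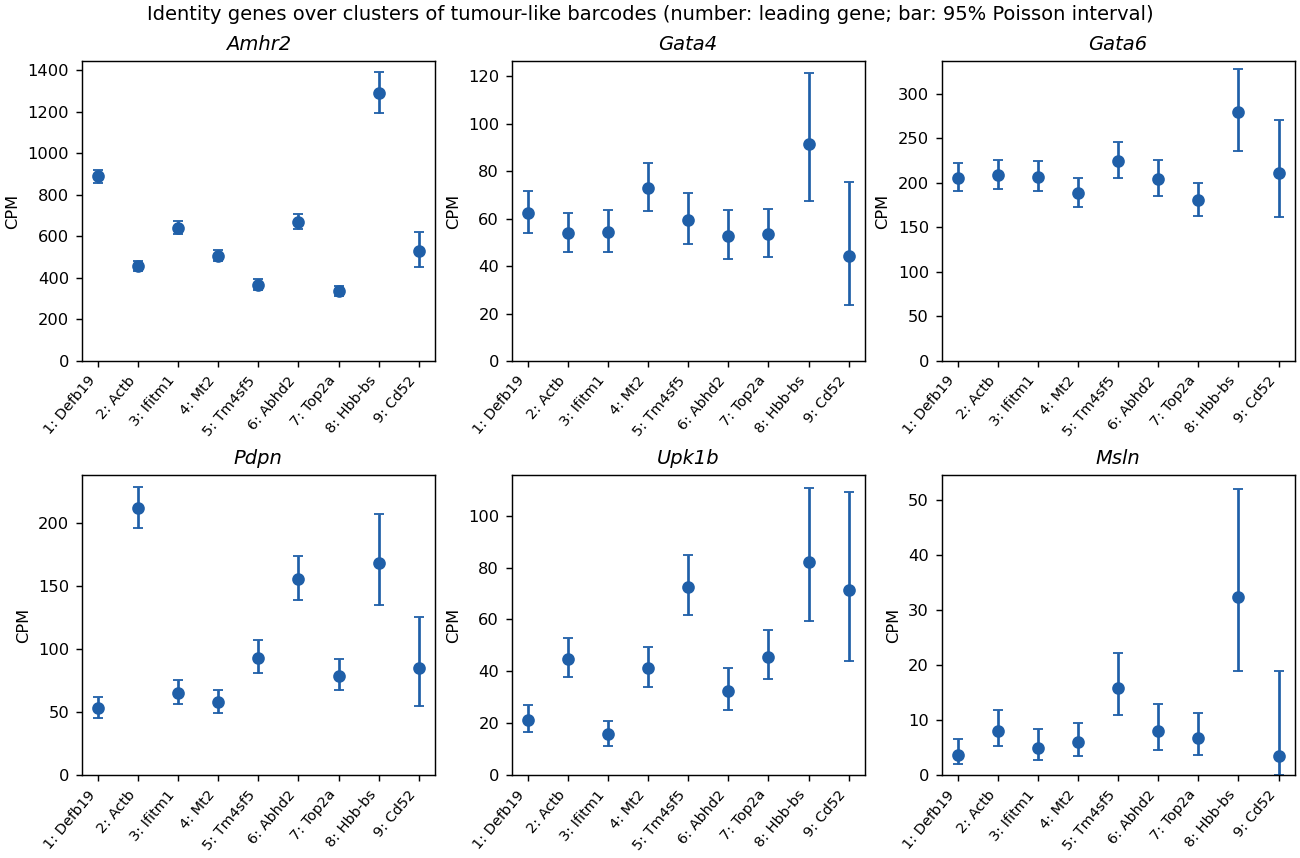
Level (CPM, linear axis from 0) of 6 of the genes in the 9 clusters of tumour-like barcodes with at least 50 barcodes, named by their leading gene; bars are 95% Poisson intervals. Amhr2 is high in cluster 1 and low in clusters 5 and 7, Pdpn is highest in cluster 2, and Gata6 runs from 180.2 CPM in cluster 7 to 279 CPM in cluster 8.

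Within 1163 tumour-like barcodes of 4000 to 6000 UMIs, the share with one gene was compared between barcodes with and without another. Gata6 was found in 65.9% (60.1 to 71.3) of barcodes with Gata4 and 60.1% (56.8 to 63.4) of those without. Amhr2 was found in 84.0% (77.6 to 89.2) of barcodes with Upk1b and 88.4% (86.3 to 90.4) of those without. Pdpn was found in 34.8% (31.8 to 37.8) of barcodes with Amhr2 and 38.0% (30.02 to 46.5) of those without. The intervals overlapped in each of these pairs. Amhr2 was found in 1021 of the 1163 barcodes and Upk1b in 169, so the presence of a UMI could show only a strong link. Whether the levels of these genes are linked within barcodes was not tested.

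Genes with related roles were read from 6 lists. Each list count below stands beside the share over all measured genes. In tumour-like against macrophage barcodes 17.9% of genes were higher and 9.62% lower. In stromal-only against tumour-like-only barcodes 1.77% were higher and 1.77% lower. In tumour-like over macrophage barcodes the median log2 ratio, after 5 CPM was added, was 2.46 for the mesothelial list, 1.41 for the gonadal and 1.11 for the anti-Müllerian hormone list, beside 0.31 for all genes. In stromal-only over tumour-like-only barcodes it was 0.42 for the mesothelial, -0.25 for the gonadal and -0.22 for the hormone list, beside -0.06 for all genes. Of 18 measured mesothelial genes, 14 were higher in tumour-like than macrophage barcodes and 1 was lower, and Krt8, Krt18, Krt19, Wt1 and Upk3b, which chose the class, count among the 14. Calb2, a mesothelial marker in humans, had 0 UMIs in both classes. In stromal-only against tumour-like-only barcodes 6 of 17 were higher and 0 lower. Krt7 was at 128 CPM in stromal-only and 15.4 CPM in tumour-like-only barcodes. Prg4, which encodes the lubricant lubricin, had 36 UMIs in stromal-only and 2 UMIs in tumour-like-only barcodes, the 36 from 14 barcodes. Macrophage barcodes held Prg4 too, with 26 UMIs and 13.6 CPM against 0.105 CPM in tumour-like barcodes, so it was the lower gene of that comparison. Cldn15 and Nkain4 were 3.27 (2.19 to 4.73) and 2.71 (2.15 to 3.37) times as high in stromal-only barcodes. Of the other uroplakins, Upk2 and Upk3a had 0 UMIs in both sets, and Upk3b, which the tumour-like rule uses, was at 406 CPM in stromal-only and 307 CPM in tumour-like-only barcodes.

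Among gonadal genes 8 of 13 were higher in tumour-like than macrophage barcodes and 0 lower, beside 17.9% and 9.62% of all genes. Star, which carries cholesterol into mitochondria for steroid synthesis, was at 105 CPM in tumour-like and 5.25 CPM in macrophage barcodes. Inha, an inhibin subunit, was at 148 CPM in tumour-like and 11.0 CPM in macrophage barcodes. Emx2, a homeobox gene of the urogenital ridge, was at 17.9 CPM in tumour-like and 1.57 CPM in macrophage barcodes, the second from 3 UMIs, a ratio of 11.4 (counting interval 3.86 to 55.4). The granulosa cell factor Foxl2 had 0 UMIs in both, as had Tcf21, Pgr, Cyp19a1 and Fshr of the same list. Cyp11a1, also on the list, had 5 UMIs in tumour-like barcodes. In stromal-only against tumour-like-only barcodes 0 of 12 gonadal genes were higher and 1 was lower, Emx2, on 4 UMIs in stromal-only and 269 in tumour-like-only barcodes. Of 5 measured genes of the Müllerian duct list, 2 were higher in tumour-like than macrophage barcodes, Cldn3 and Hoxa10, and 0 lower, while Pax8, a Müllerian epithelial factor, had 0 UMIs in both.

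Genes that act with Amhr2 were measured as well. The hormone gene Amh had 45 UMIs in tumour-like and 1 UMI in macrophage barcodes. Of 10 measured genes for its co-receptors, Smad proteins and Id targets, 5 were higher in tumour-like than macrophage barcodes and 1, Id2, was lower. Over all genes 17.9% were higher and 9.62% lower. Id1 was at 202 CPM in tumour-like and 18.9 CPM in macrophage barcodes, and Bmpr1a, a co-receptor, had 255 UMIs in tumour-like and 3 UMIs in macrophage barcodes. In stromal-only against tumour-like-only barcodes 0 of 10 were higher and 1 was lower, Id2, at 10.1 CPM in stromal-only and 47.8 CPM in tumour-like-only barcodes. Of 6 podoplanin partners, Ezr and Cd9 were higher and Cd44 and Msn lower in tumour-like than macrophage barcodes. Between stromal-only and tumour-like-only barcodes 0 of the 6 were higher and 0 lower.

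Across the 18 clusters the genes most like each member differed between members. Pearson's r was taken on log2(CPM + 20) over 5262 genes as a description, since the clusters share 1 library and differ in depth. Amhr2 was most like Garnl3 (r = 0.977), Sema3d (0.971) and Inha (0.964). Gata6 was most like Upk3b (0.987), Cpe and Emp2, and Gata4 like Smarca2 (0.947) and Zrsr1. Msln was most like the collagen genes Col3a1 (0.988) and Col5a2 and the transporter gene Abcb1a, and Muc16 like Col5a2 (0.977), Pdgfra and Cd248. Upk1b was most like Wfdc1 (0.925), Col4a1 and Dcn, Pdpn like P3h4 (0.917), Myrf and Upk3b, and Nr2f2 like Phgdh (0.895), Arpc1a and Unc45b. For Msln and Muc16 the measure rested on cluster 16, where both peaked, and Upk1b peaked there too. Nr2f2 reached at most 19.9 CPM, less than the 20 CPM added, so its r values rest on a narrow range.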

How the data were processed

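Single-cell RNA was measured in 1 ascites library with a 10x Genomics assay, per the labels. The values are counts of UMIs per gene and barcode, as deposited by the authors, with no cells selected (27998 genes, 737280 barcodes, 35733776 UMIs). Neither aligner nor genome build is given in the sources used here. The bulk table was left out because its 8 value columns carry names that match no label, so deferiprone and vehicle were not compared as planned.

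Barcodes were filtered and classed as stated above, and UMIs were summed per class with exact Poisson intervals for CPM, Clopper-Pearson intervals for shares and conditional binomial intervals for ratios (scipy 1.17.1). UMIs in 1 library are molecules, not replicates. The interval method was tested on simulated data. The simulated counts were independent Poisson draws, the model that the intervals assume, with changes set only in well-counted genes. The simulation could not show how the intervals hold for sparse genes or where UMIs are clumped in few barcodes. The free RNA share is the CPM of other cell types' markers in a class over their CPM in low-count barcodes. Clusters used scanpy 1.11.5 and leidenalg 0.10.2 (resolution 1, seed 1). Scrublet marked 89 barcodes (1.38%) as doublets, which were kept except in an alternative. Python 3.11.15, numpy 2.4.6 and pandas 2.3.3 handled the tables, and matplotlib 3.10.9 drew the figures.

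The 9 genes, the lists and the class rules were chosen with earlier results of these data known. The rule named all 9 genes, up to 4 genes of each list with the largest change, the 3 genes most like each member with at least 50 UMIs and the 3 leading genes of each cluster of tumour-like barcodes. Other genes, such as those at 0 UMIs, Slpi and Amh, were singled out after their values were seen. Some genes that the rule named are not reported here.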

Additional observations from a re-analysis of the deposited data

Results flagged for a closer look

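UMIs of 8 of the 9 genes were found in the 1734 kept barcodes that met none of the 3 class rules, above the limit that a count of 0 allows. There were 1161 UMIs of Amhr2, 380 of Gata6, 206 of Pdpn, 114 of Gata4, 78 of Upk1b, 30 of Nr2f2, 17 of Msln and 12 of Muc16. Among these barcodes, 116 failed the tumour-like rule for holding at least 2 UMIs of C1qa, C1qb and C1qc, and they had 549.8 CPM (496 to 608) of Amhr2. A further 49 failed it for a UMI of Col1a1, Col1a2 or Mgp, and they had 548 CPM (461 to 648) of Amhr2 and 15.9 CPM (4.33 to 40.7) of Msln. The remaining 1569 had a median of 1116 UMIs and 296 CPM (274 to 320) of Amhr2.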

How the results depend on the processing

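Of the 9 genes, 5 to 8 were higher in tumour-like than macrophage barcodes under 12 alternatives, with 5 when 20 CPM was added in place of 5 and 8 when 1 CPM was added. None was higher in stromal-rule than tumour-like barcodes in 8 of the alternatives, but the count became 1 (Msln) with the class thresholds doubled, 1 with 1 CPM added and 1 with barcodes thinned to 1000 UMIs. It became 2 (Upk1b and Msln) with barcodes that met 2 rules left out, and 2 with the 39 barcodes of at least 4 collagen and Mgp UMIs, an alternative chosen after seeing the data, which also gave 2 lower genes (Amhr2 and Gata4) in place of 0. Of 225 values of single genes recomputed, 190 stayed within the interval of the main value and 35 moved outside it. The sign of the main log2 ratio was kept in 215. A reversal was counted only where the main ratio passed the limit of 2 after 5 CPM was added, and there were 0. No stromal-rule to tumour-like ratio passed it, so none of those could count as reversed. With 1 library, none of these counts has a replicate check. At these depths Lhx9 could not be compared, and Muc16 and Nr2f2 rest on few UMIs in stromal-only barcodes. No paired analysis was possible because the columns of the bulk table could not be tied to the labels, so the planned block, leave-one-out, filter and second-tool alternatives for it were not run.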
